A study of Mus musculus with 2 samples.

Results

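The genes examined here are 7 receptor genes through which the splanchnic nerve and related signals act on the catecholamine-secreting chromaffin cells of the adrenal medulla. They are the nicotinic acetylcholine receptor subunits Chrna3, Chrna5, Chrnb4, Chrna7 and Chrnb2, the PACAP receptor gene Adcyap1r1, and Ret, a receptor tyrosine kinase. They were chosen by name, not by a measured value, and are 7 of 21805 protein-coding genes. Every peak and footprint within the gene body plus 50 kb on each side was taken. Chrna5, Chrna3 and Chrnb4 are neighbours on chromosome 9 and were treated as 1 locus, which gave 5 loci. The data are 2 DNase-seq libraries, biological replicates 1 and 2 (technical replicate 1 in both), made from adrenal glands of mice of the F1 hybrid strain B6CASTF1/J, all adult males of 18 to 20 months. No treatment was named, and the libraries formed 1 group, so no conditions could be compared and no test between conditions was possible. DNase I cuts DNA where chromatin is open, a peak is a stretch with many cuts, and a footprint is a short stretch protected from cuts. The deposited footprints did not all overlap a called peak of their library. Peak height is the authors' normalised signal, and its scaling is not given in the sources used here.

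The whole gland was used, so chromaffin cells were mixed with the steroid-making cells of the cortex and with other cells. A smaller share of open nuclei and less openness per nucleus cannot be told apart in such a mixture. Of 13 chromaffin cell marker genes, 7 had a promoter peak in both libraries. Slc18a1, a vesicular monoamine transporter, was the highest at 12.5 in replicate 1 and 9.25 in replicate 2, in a region that also lies near a start of Atp6v1b2. The next highest was Chgb, at 3.71 in replicate 1 and 3.77 in replicate 2. Neither library listed a promoter peak for Th, Pnmt or Ddc, which encode enzymes of catecholamine synthesis, and Dbh had one in replicate 1 only. Of the other marker lists, 6 of 9 cortex, 5 of 8 Schwann cell, 2 of 8 macrophage, 7 of 8 endothelial and 5 of 8 fibroblast genes had one in both libraries. Over all protein-coding genes 64.5% did, so several of these shares lie near or below that of any gene. The part of each cell type in the values below was not tested. The longer peak list held 98630 peaks in replicate 1 and 118249 in replicate 2, and the footprint lists held 228557 and 273271 entries. Heights were whole multiples of a step, 0.00531 for replicate 1 and 0.00750 for replicate 2, which would correspond to 188.3 and 133.3 M cuts if the heights were CPM.

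Preganglionic splanchnic fibres release acetylcholine and the peptide PACAP onto chromaffin cells. Acetylcholine opens nicotinic receptors, which are pentamers of subunits, and the calcium entry that follows triggers release of adrenaline and noradrenaline. Chrna3 and Chrnb4 encode the subunits of the main ganglionic type of receptor, and Chrna5 encodes an accessory subunit that joins it. Chrna7 encodes a subunit that can form a receptor by itself, and Chrnb2 encodes the usual partner of Chrna4 in brain. PACAP acts through the G protein-coupled receptor PAC1, the product of Adcyap1r1. Ret is the signalling receptor for ligands of the GDNF family, which bind it together with GFRα co-receptors.

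The sequences below are those the results return to most, namely promoter stretches with footprints in both libraries and the tallest distal regions of the loci, a distal region being one more than 1 kb from any annotated start of a protein-coding transcript. They were read from the RefSeq genome GRCm38.p6, the assembly that mm10 names, on the strand of the gene and 5′ to 3′. Capitals mark bases under a footprint in both libraries. The Chrna7 stretch is chr7:63212514-63212700 (mm10, minus strand), just upstream of the protein-coding start. The Chrnb2 stretch is a site of 30 bases in the 5′ untranslated region of exon 1, chr3:89764450-89764479 (minus strand). The Ret stretch is a site of 30 bases between its annotated starts, chr6:118197392-118197421 (minus strand).
Chrna7 promoter: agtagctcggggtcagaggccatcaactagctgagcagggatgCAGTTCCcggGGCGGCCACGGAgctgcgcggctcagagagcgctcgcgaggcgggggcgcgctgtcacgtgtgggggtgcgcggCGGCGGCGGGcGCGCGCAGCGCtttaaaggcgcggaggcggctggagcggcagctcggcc
Chrnb2 exon 1 site: GCGGCTTCAGCACCACGGACAGCGCTCCGt
Ret promoter site: gcacCCCTGGTCCCGCCCCtctcgctgcca

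The distal regions shown are chr9:55024021-55024200 (minus strand), which covers exon 3 of Chrna3 with parts of the introns on either side and holds 45 coding bases, chr3:89785441-89785680 (minus strand) upstream of Chrnb2, chr6:55511841-55512040 and chr6:55519881-55520080 (plus strand) downstream of Adcyap1r1, and chr6:118179741-118179900 (minus strand) in intron 4 of Ret.
Chrna3 exon 3 and intron 3: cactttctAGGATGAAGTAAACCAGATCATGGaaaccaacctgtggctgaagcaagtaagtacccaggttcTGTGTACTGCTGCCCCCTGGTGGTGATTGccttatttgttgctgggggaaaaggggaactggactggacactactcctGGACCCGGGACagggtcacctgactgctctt
Chrnb2 upstream: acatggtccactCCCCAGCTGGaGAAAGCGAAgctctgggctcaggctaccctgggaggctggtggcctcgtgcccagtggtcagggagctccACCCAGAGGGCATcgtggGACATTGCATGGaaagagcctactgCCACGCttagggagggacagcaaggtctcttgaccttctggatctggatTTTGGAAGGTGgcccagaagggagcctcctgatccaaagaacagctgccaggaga
Adcyap1r1 downstream, nearer: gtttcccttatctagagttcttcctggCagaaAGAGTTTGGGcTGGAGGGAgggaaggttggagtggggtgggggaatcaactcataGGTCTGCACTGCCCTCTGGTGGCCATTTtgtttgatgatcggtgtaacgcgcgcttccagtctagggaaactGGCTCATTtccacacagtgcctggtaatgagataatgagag
Adcyap1r1 downstream, farther: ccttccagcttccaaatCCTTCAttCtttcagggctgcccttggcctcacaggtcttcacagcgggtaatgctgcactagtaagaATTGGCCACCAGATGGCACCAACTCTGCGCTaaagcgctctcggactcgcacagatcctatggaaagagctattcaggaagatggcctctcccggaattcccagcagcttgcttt
Ret intron 4: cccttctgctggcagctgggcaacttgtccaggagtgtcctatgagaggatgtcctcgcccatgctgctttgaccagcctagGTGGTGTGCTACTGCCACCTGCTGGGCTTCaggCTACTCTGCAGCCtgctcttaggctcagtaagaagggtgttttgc

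The promoters of 6 of the 7 genes were open in both libraries, but all of them were lower than the median open promoter. A gene was called open where at least 1 of its starts had, within 1 kb, a region called as a peak in each library. The share was 85.7% for the receptor genes and 64.5% for all protein-coding genes. The median height over the 6 open receptor promoters was 0.868, against 3.90 over the 14069 genes open in both libraries. The exception was Chrna3, with a promoter peak in replicate 2 only. In replicate 2 alone all 7 genes had a promoter peak (67.4% of all genes), and in replicate 1 alone 6 of 7 had one (66.6%). In the authors' shorter peak list 3 of the 7 promoters, those of Chrna7, Chrnb2 and Ret, remained open in both libraries, against 59.9% of all genes. The same 3 remained when only peaks above the median height of their library were kept.

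Chrna7 and Chrnb2 had the tallest promoters of the 7. Chrna7 had a height of 3.44 in replicate 1 and 2.68 in replicate 2 (3.06 ± 0.536, SD, n = 2) in the region chr7:63212481-63212700, which spans the annotated start. Of all genes open in both libraries, 38.7% had a lower promoter. A second, low region of 0.451 and 0.472 lay downstream, centred 630 bp from the start in intron 2. Between these regions replicate 2 also listed a peak of 0.735 over exon 2 of the transcript used for numbering. Replicate 1 listed no peak there, although positions in it were listed at a false discovery rate as low as 2.92e-06. Chrnb2 had 2.93 in replicate 1 and 2.44 in replicate 2 (2.68 ± 0.349) in the region chr3:89764361-89764560, centred 147 bp downstream of a start and within exon 1, and 34.2% of open genes were lower. Both genes were higher in replicate 1, and each had 2 footprints within 1 kb of a start that overlapped between the libraries. The heights of Chrna7 in 1 library overlapped those of Chrnb2 in the other, so their order did not exceed the spread between libraries.

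Ret stood well below these genes. Its highest promoter region had 0.823 in replicate 1 and 0.960 in replicate 2 (0.891 ± 0.0969), at chr6:118197261-118197500, and 10.4% of open genes were lower. A neighbouring region in intron 1, chr6:118196741-118197240, had 0.828 and 0.780, and it covered the inner of the annotated starts. Ret had 3 footprints shared between libraries within 1 kb of a start, the most of any of the 7 genes. The lower library of Chrnb2 lay above the higher library of Ret, and this was the only step in the order of the 6 genes at which the ranges of the libraries did not overlap.

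Adcyap1r1 had a region with a peak in both libraries at its 5′ end and another near an alternative start. The libraries differed in which was higher. Near the alternative start inside the gene, position 55460236 on chromosome 6, the region chr6:55461181-55461380 had 0.558 in replicate 1 and 1.13 in replicate 2 (0.845 ± 0.407). It was centred 1045 bp downstream of that start, in intron 2, with its near edge within 1 kb. That edge belonged to the peak of replicate 2, and replicate 1 had no peak within 1 kb of this start. The region counted as a promoter region only through the merging of both peaks. At the group of starts at the 5′ end, the region chr6:55451803-55452632 had 0.850 in replicate 1 and 0.517 in replicate 2 (0.684 ± 0.235). The 5′ end region merged 3 peaks of replicate 1 and 2 of replicate 2, and each height is the highest of its library. The heights may therefore come from different positions. In the shorter list both libraries had a peak in this region, but these did not overlap. With that limit, replicate 1 was higher in the 5′ end region and replicate 2 in the region near the alternative start. The heights near the alternative start rest on 105 steps in replicate 1 and 151 in replicate 2, and with 1 library each the difference between them was not tested. By the mean of both libraries, 9.63% of open genes were lower than Adcyap1r1 at its higher region.

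The ganglionic receptor genes had the lowest promoters. Chrnb4 had 0.536 in replicate 1 and 0.675 in replicate 2 (0.606 ± 0.0981) at chr9:55048420-55048800, over exon 1, and 4.98% of open genes were lower. Chrna5 had 0.467 in replicate 1 and 0.645 in replicate 2 (0.556 ± 0.126) at chr9:54981521-54982060, from exon 1 into intron 1, and 3.96% were lower. A second Chrna5 region at chr9:54981261-54981480 had 0.457 and 0.495. Both genes were somewhat higher in replicate 2, and neither had a footprint shared between the libraries within 1 kb of a start. Chrna3 had a peak of 0.270 in replicate 2, 36 steps with an exact Poisson 95% interval of 0.189 to 0.374, at chr9:55026451-55026480 in exon 1. Replicate 1 listed none there, and its nearest peak lay 2032 bp from a start, against 50 bp in replicate 2. The lowest listed false discovery rate within 1 kb of the Chrna3 5′ end was 0.0438 in replicate 1, over 3 listed bases, and 0.0318 in replicate 2, over 39. Both libraries were therefore close to the 0.05 limit of the deposited list at this promoter.

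**Figure D1:**
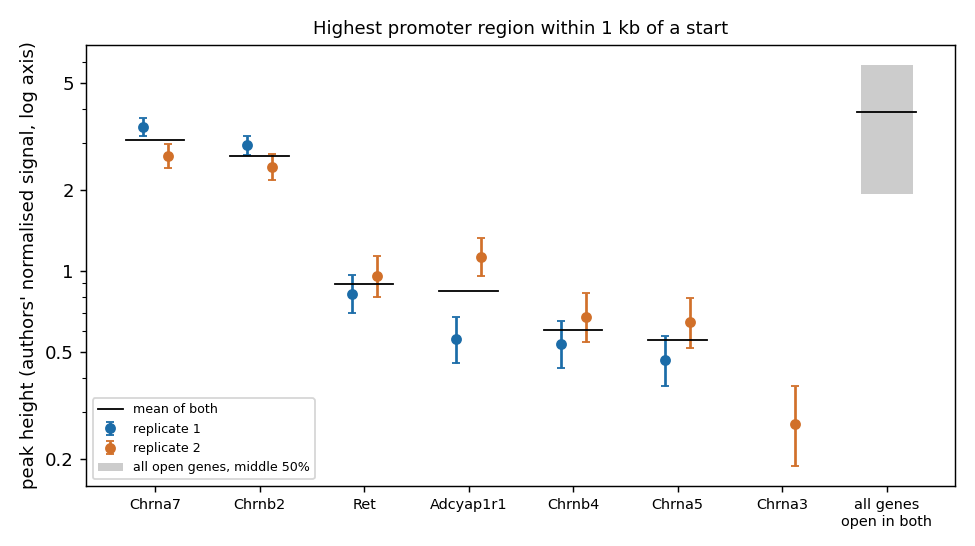
Height of the highest promoter region of each receptor gene (log axis, authors' normalised signal), in replicate 1 (blue) and replicate 2 (orange), with exact Poisson 95% intervals of the steps and the mean of both as a black line. The grey bar spans the middle 50% of all genes open in both libraries, 1.94 to 5.84, with its median of 3.90 as a black line. Chrna7 and Chrnb2 lie within that bar, the other genes lie below it, and Chrna3 has a point in replicate 2 only. For Adcyap1r1 the region shown is the intronic one near its alternative start, not the one at its 5′ end.

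By the mean of both libraries, the tallest distal region of the 5 loci lay inside Chrna3. The region over exon 3 and parts of the introns on either side, printed above, had a height of 3.94 in replicate 1 and 4.03 in replicate 2 (3.99 ± 0.0673, SD, n = 2). It was centred 2419 bp downstream of a Chrna3 start and held 3 footprints found in both libraries. Of 43093 distal regions with a peak in both libraries, 95.3% were lower. The libraries differed there by a log2 ratio of -0.03 (replicate 1 over replicate 2), less than at the highest promoter region of any of the 6 open receptor genes. The same gene thus had a tall region in its body in both libraries and a promoter peak near the list's limit in 1 library. The gene cluster as a whole had 11 regions, of which 5 had a peak in both libraries, 1 in replicate 1 only and 5 in replicate 2 only. The 5 shared regions were 3 at receptor promoters, the Chrna3 region, and the region of 5.22 and 4.32 at the starts of Psma4 and AY074887. By count, 35.3% of genes had fewer than 5 shared regions in their own windows, which hold 1 gene body where this one holds 3. Per length the cluster had 2.98 shared regions per 100 kb, against a median of 4.68 over all genes.

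Chrna7 had the fewest shared regions per length of the 5 loci. Its 214 kb window held 2 regions with a peak in both libraries, both at the promoter, which is 0.935 per 100 kb. By count, 17.6% of genes had fewer than 2. Another 4 regions were listed in replicate 2 only, at heights of 0.322, 0.345, 0.435 and 0.735. No distal region of Chrna7 was found in both libraries, and its 2 shared footprints were those of the promoter.

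Chrnb2 lay among open promoters of other genes. Its locus had 10 regions with a peak in both libraries and 22 shared footprints. By count, 68.9% of genes had fewer shared regions. Of the 10 regions, 7 were at promoters of Adar, an RNA-editing enzyme, or Ube2q1, a ubiquitin-conjugating enzyme, and 1 was its own promoter. The remaining 2 were distal. The region upstream of Chrnb2, on the far side of Ube2q1, had 3.13 in replicate 1 and 4.30 in replicate 2 (3.71 ± 0.827), and 94.3% of distal regions were lower. In replicate 2 it stood above the Chrna3 region, and in replicate 1 below it. It was centred at -20929 bp from a Chrnb2 start, negative meaning upstream, and held 5 shared footprints, the most of the distal regions of these loci. The other, at chr3:89727121-89727340 within Adar, had 0.823 in replicate 1 and 0.952 in replicate 2. Which of these genes a distal region acts on is not shown by these data.

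Adcyap1r1 had the most distal regions. Its locus held 11 regions with a peak in both libraries and 2 in replicate 2 only. By count, 74.1% of genes had fewer shared regions, and per length it had 7.36 per 100 kb, against 8.44 at Chrnb2. Of the 11, 9 were distal, 4 of them in introns of Adcyap1r1 and 5 downstream. None of the other genes counted here lay in the window. The tallest were the downstream regions printed above. The nearer had 2.31 in replicate 1 and 2.79 in replicate 2 (2.55 ± 0.340), higher than 86.7% of distal regions, with 3 shared footprints. The farther had 1.77 in replicate 1 and 2.81 in replicate 2 (2.29 ± 0.735), higher than 83.9%, with 2 shared footprints. Both stood above either of the gene's promoter regions in both libraries.

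Ret had 6 regions with a peak in both libraries, and by count 42.3% of genes had fewer. Apart from its own promoter regions, these were the Csgalnact2 promoter of 7.91 and 5.95 and 3 distal regions. The intron 4 region printed above had 1.76 in replicate 1 and 2.30 in replicate 2 (2.03 ± 0.385), higher than 80.5% of distal regions. An upstream region, chr6:118205281-118205480, had 0.802 and 1.41, and a region in intron 1, chr6:118195221-118195400, had 0.850 and 0.997. Each of the 3 was higher in replicate 2, and they held 2, 3 and 2 shared footprints.

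The 3′ part of Ret differed between the libraries in what was listed. Replicate 1 had 12 peaks in 9 regions over 9.85 kb of introns 11 to 18, chr6:118161211-118171060, and replicate 2 had none. Their heights were low, from 0.0584 to 0.212, or 11 to 40 steps, yet 8 of the 9 regions also stood in the shorter list and the lowest false discovery rate was 6.63e-14. In this stretch 4116 bases were listed under the rate limit in replicate 1, and 0 in replicate 2. Over the genome 10.9% of peaks of replicate 1 were as low as these, and 2.00% of those overlapped a peak of replicate 2. In replicate 2, 2.97% of peaks were as low. The cause of this difference was not tested, and no statement about Ret rests on it.

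**Figure D2:**
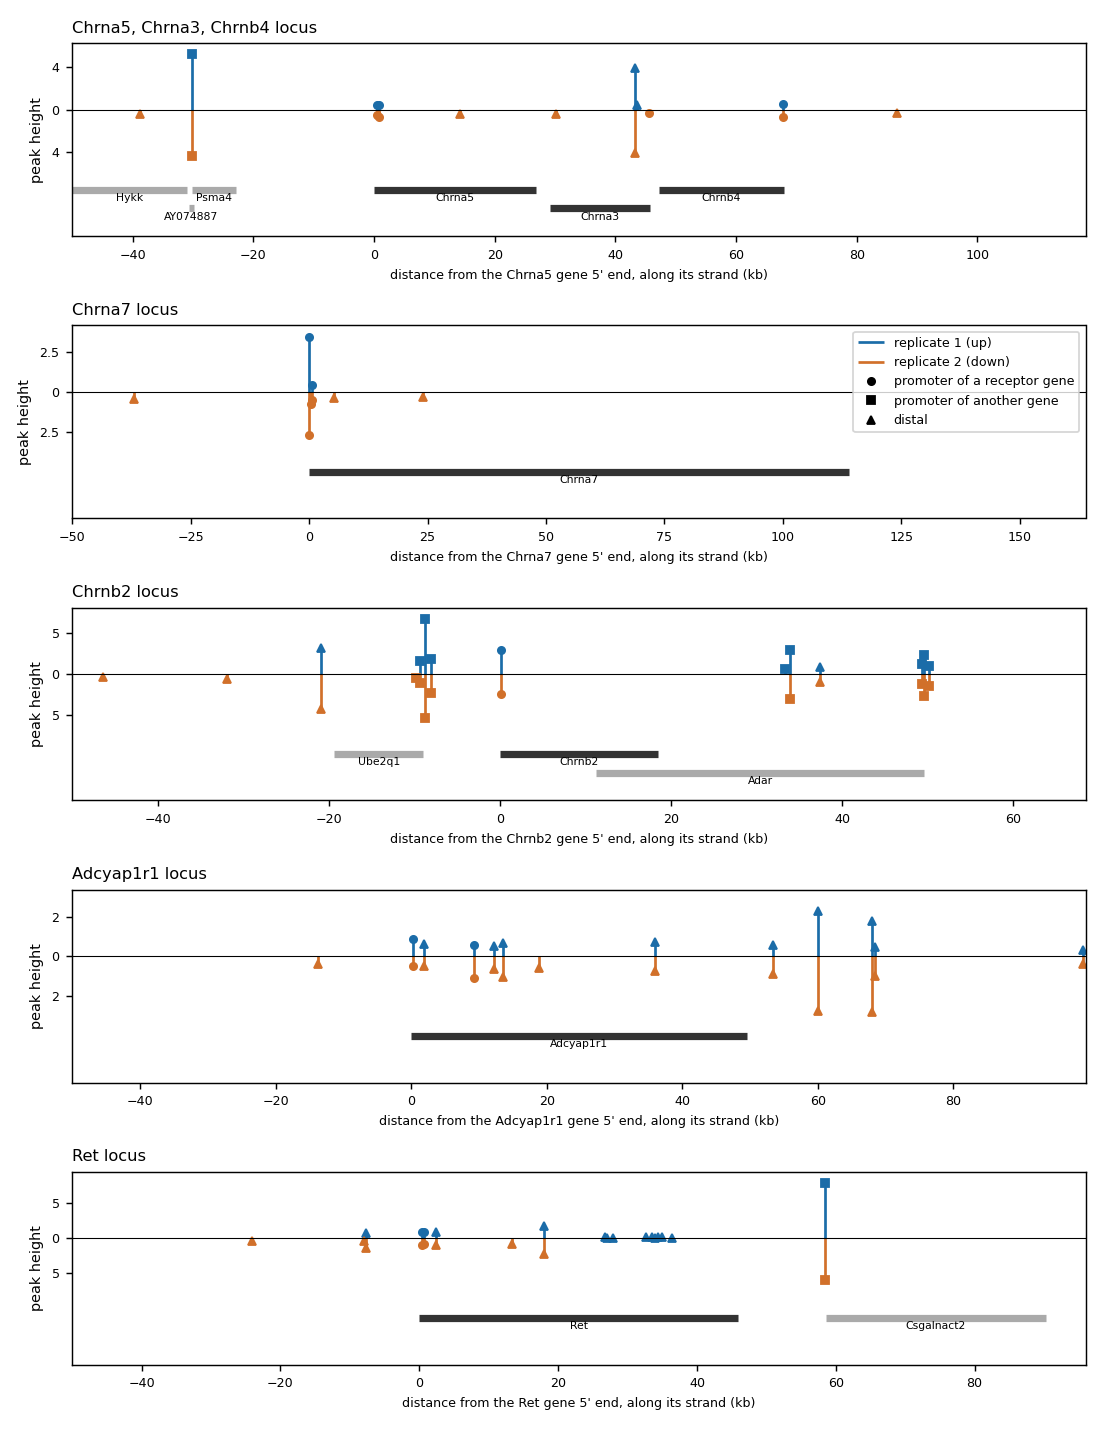
Peak regions of the 5 loci by distance from the 5′ end of the named gene along its strand (kb), with height on a linear axis upward for replicate 1 and downward for replicate 2. Circles are promoters of the receptor genes, squares promoters of other genes, and triangles distal regions, and bars below show gene bodies (dark for receptor genes). The tall triangle inside Chrna3 is 3.94 in replicate 1 and 4.03 in replicate 2, the Chrna7 gene body has no distal region in both libraries, and the low triangles in the 3′ part of Ret are in replicate 1 only.

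Across the 5 loci, 34 of 62 regions had a peak in both libraries, against 65778 of 143793 regions over the genome. By peaks, 37 of 51 in replicate 1 overlapped a peak of replicate 2, against 69.8% over the genome, and 35 of 52 in replicate 2 overlapped one of replicate 1, against 58.1%. A footprint in both libraries was held by 24 of the 34 shared regions, against 73.7% of all shared regions. The loci held 118 footprints in replicate 1 and 119 in replicate 2, with 53 overlaps between the libraries, and over the genome 53.7% of footprints of replicate 1 and 44.8% of those of replicate 2 overlapped one of the other library. These shares were near or moderately above or below those of the genome, and the differences were not tested. Height was greater in replicate 2 at 25 of the 34 regions, against 61.5% of 65778 shared regions. Among the 15 distal regions 14 were higher in replicate 2, with a median log2 ratio of replicate 1 over replicate 2 of -0.39, against 69.1% and -0.21 over all distal regions. The 1 distal region higher in replicate 1 was in intron 1 of Adcyap1r1. Only 1 of the 34 regions had a log2 ratio outside the central 95% of all shared regions, -1.17 to 0.63.

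**Figure D3:**
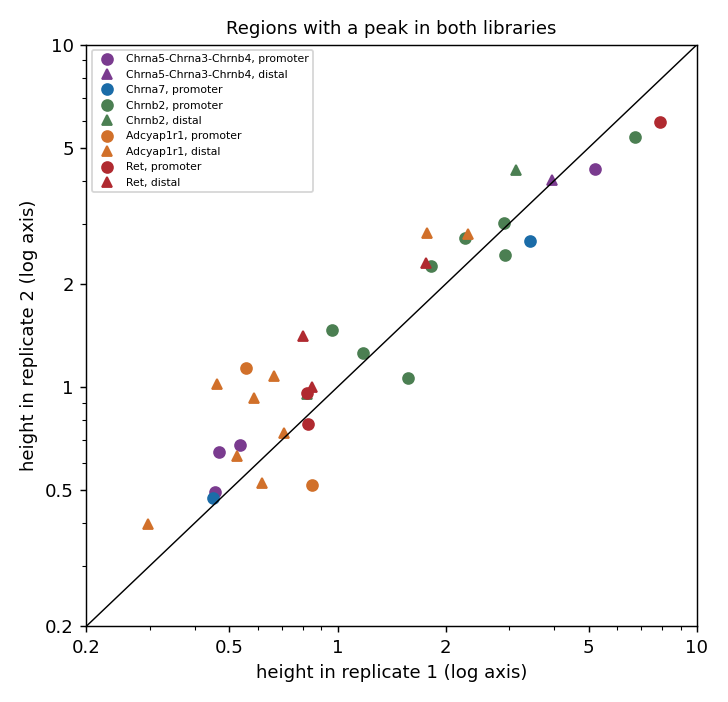
Height in replicate 1 (horizontal, log axis) against height in replicate 2 (vertical, log axis) for the 34 regions of the 5 loci with a peak in both libraries, coloured by locus, with circles for promoters of any gene and triangles for distal regions. The line marks equal height, and 25 of the 34 regions lie above it, among them 14 of the 15 distal ones.

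Consensus motifs were searched on both strands in windows of 300 bp centred on the highest promoter region of each gene (for Chrna3, on its peak of replicate 2) and on the distal regions. For Adcyap1r1 the promoter window was the intronic one near its alternative start, and the region at its 5′ end was not searched. At Chrnb2 the RE1 core, the consensus of the neuronal gene repressor REST, was matched as AGCACCACGGACAG (any base allowed at positions 7 and 8) at chr3:89764458-89764471 on the strand of the gene. The match lay under a footprint in both libraries, in the exon 1 site printed above. Of the 7 promoter windows, 1 held this motif, against 0.357% of 12873 promoter windows open in both libraries. The GC box GGGCGG was overlapped by a footprint in both libraries at Chrna7 and Ret, in the sequences printed above, and stood in 4 of 7 windows, against 71.1% of all promoter windows. For Ret it lay on the strand opposite to the printed one.

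A CTCF consensus of 12 letters, chosen after these sequences were seen, stood under footprints in 4 of the 5 distal regions printed above. The share of other tall distal regions with shared footprints that hold it was not counted. CTCF is a zinc finger protein that binds at chromatin loop anchors and insulators. The 12-letter consensus was matched in the farther Adcyap1r1 region as CCACCAGATGGC (any base allowed at positions 4, 5, 8 and 9). With this consensus 6 of 15 distal windows held a match, against 20.5% of 43093 distal windows of any height. With a shorter one, matched in the Chrnb2 region within Adar as CCTCCAGAGGC (any base allowed at positions 3, 4, 5 and 8), 4 of 15 did, against 8.39%. Of the printed regions only the farther Adcyap1r1 one held the shorter consensus, with a footprint there in replicate 1 only. The 12-letter match lay under a footprint in both libraries in the Chrna3 region, in both downstream Adcyap1r1 regions and in intron 4 of Ret, all printed above. It lay on the printed strand in the farther Adcyap1r1 region and on the opposite strand in the other 3. It also lay under a footprint in both libraries in a lower Adcyap1r1 region, chr6:55505201-55505380, of 0.584 and 0.930. In the farther Adcyap1r1 region a CAGATG match, the letters bound by some basic helix-loop-helix factors, overlapped the CTCF match. The upstream Chrnb2 region held no 12-letter match, and a CAGCTG match there lay under a footprint in both libraries. A match describes the letters of the reference and does not show which protein bound.

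The other genes of these pathways were taken as 7 lists of 56 genes, of which 35 (62.5%) were open in both libraries, against 64.5% of all genes, so the share over the lists was near that of any gene. Their median height was 1.40, against 3.90 over all open genes. Of 11 other nicotinic subunit genes, 2 were open, Chrnb1 of the muscle receptor at 3.88 ± 0.0721 and Chrna4 at 1.04 ± 0.286. Neither library listed one for Chrna1, Chrna6, Chrna9, Chrna10, Chrnb3, Chrnd, Chrne or Chrng. Chrna2 had one in replicate 2 only. Of 5 muscarinic receptor genes 3 were open, Chrm4 at 2.41 ± 0.516, Chrm3 at 0.729 ± 0.189 and Chrm2 at 0.294 ± 0.0344, and none was listed for Chrm1. Of 9 genes listed under assembly and modulation of nicotinic receptors, 7 were open. The highest were Nptn at 6.34 ± 0.130, the chaperone gene Ric3 at 2.65 ± 0.393 and Lynx1, which encodes a membrane-anchored modulator, at 1.88 ± 0.261. That Nptn acts on these receptors is not shown by these data.

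Of 7 genes for supply and breakdown of acetylcholine, 3 were open. Ache, which encodes acetylcholinesterase, stood at 4.48 ± 0.0284, Prima1, which anchors it in membranes, at 1.57 ± 0.105, and Bche, butyrylcholinesterase, at 0.793 ± 0.108. No promoter peak was listed for Chat, which makes acetylcholine, for Slc18a3, which loads it into vesicles, or for Colq, the collagen tail that anchors acetylcholinesterase, and the choline transporter gene Slc5a7 had one in replicate 1 only. Of 7 genes of the PACAP and VIP family 4 were open, led by Vipr1 at 2.67 ± 0.366, in a region that also lies near a start of Lyzl4, Vipr2 at 1.26 ± 0.0283 and Sctr, the secretin receptor gene, at 0.528 ± 0.0486. None was listed for Adcyap1, which encodes PACAP itself, or Ghrhr.

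Of 9 genes for GDNF family ligands and co-receptors 8 were open (64.5% of all genes), at a median height of 0.810, led by the ligand genes Nrtn at 5.15 ± 0.719 and Artn at 1.40 ± 0.259 and the co-receptor gene Gfra1 at 1.00 ± 0.234, and none was listed for Gfral. The ligand gene Gdnf, named after its values were seen, stood low, with 0.366 in replicate 1 and 0.367 in replicate 2. In the shorter peak list 4 of these 9 were open, against 59.9% of all genes. All 8 genes of signalling downstream of RET were open, at a median of 5.75, led by the adaptor genes Grb2 at 6.99 ± 0.375 and Frs2 at 6.71 ± 0.124 and the exchange factor gene Sos1 at 6.80 ± 1.72. These 3 are used by many receptors and in many cell types.

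**Figure D4:**
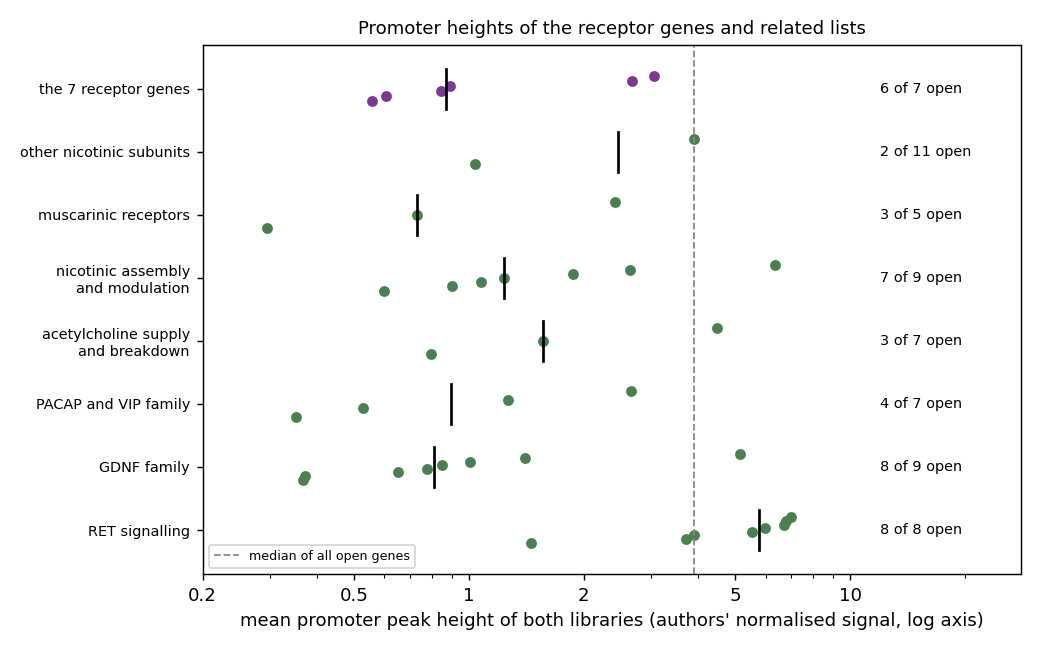
Mean promoter height of both libraries (log axis) for each gene open in both libraries, for the 7 receptor genes (top, purple) and the 7 related lists (green), with the median of each list as a black bar and the median of all open genes, 3.90, as a dashed line. The receptor genes lie below the dashed line, and RET signalling is the list with the highest median, 5.75.

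Among 42 genes open in both libraries in the pathway and chromaffin lists, the gene nearest to each receptor gene in height was found from the distance between log2 heights over the 2 libraries. Chrna7 and Chrnb2 were both nearest to Vipr1, at distances of 0.28 and 0.02. Ret was nearest to Insm1, a transcription factor gene of the chromaffin list, at 0.18, and Chrnb4 to Slc18a2, a vesicular monoamine transporter gene of the same list, at 0.13. Chrna5 was nearest to Sctr at 0.21, and Adcyap1r1 to Rapsn, which clusters muscle nicotinic receptors, at 0.25. With 2 libraries these are values, not evidence of a shared pattern.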

How the data were processed

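DNase-seq peaks, footprints and false discovery rates of 2 libraries came as the authors deposited them, 1 set per library, on mm10, per the labels. Which aligner and callers were used is not given in the sources used here. The labels give separate tissue samples but 1 donor entry, so spreads (SD, n = 2) measure these samples, which may come from 1 animal. The signal used is the height that the authors deposited for each peak of the longer of 2 peak lists. Heights were whole multiples of a step (100% within 0.05 of a step), and exact Poisson 95% intervals take 1 step as 1 cut and cover counting error only. The deposited footprint score was 0.01 throughout and was not used. The q-value (false discovery rate) in the deposited files was listed only under 0.05.

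Genes, starts, exons and introns came from GENCODE vM21 (GRCm38), with 21805 protein-coding genes and 54250 starts of protein-coding transcripts. Exons and introns of each receptor gene were numbered on its protein-coding transcript with the most exons. Peaks overlapping by at least 1 bp were merged into regions. Allele differences of the hybrid mice from the reference were not examined. A peak missing from a list is called not listed. The receptor genes and the 13 gene lists (110 symbols, all matched) were chosen with earlier results of these data known. Named genes were all 7 receptor genes, the 3 highest open genes of each pathway list, those listed in neither library, the 3 highest regions of each locus with all shared promoter regions, and the gene nearest in height. There was 1 group, so no test was run. Alternatives changed the promoter distance, starts, peak list, height limit, flank, overlap, motif window and library. Counting functions were tested on simulated data. Python 3.11.15, pandas 2.3.3, numpy 2.4.6 and scipy 1.17.1 were used. Results for 1 of the motifs searched are not reported here.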

Additional observations from a re-analysis of the deposited data

How the results depend on the processing

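Of 155 alternative values over 26 results, 118 stayed within the limits set for a like value (1.5 times for a count, 1 SD for a height) and 37 moved. For the promoter heights, leaving out 1 of 2 libraries cannot exceed 1 SD, so it says nothing about their stability, and Adcyap1r1 was 1.13 without replicate 1 and 0.558 without replicate 2. The count of open receptor promoters, 6 of 7, was 3 with the shorter peak list and 3 with peaks above the median height, and 6 to 7 with 1 library left out. Within 5 kb of a start, 6 other nicotinic genes against 2, and 5 acetylcholine genes against 3, were open. With peaks above the median height 1 muscarinic, 2 PACAP and VIP family and 4 GDNF family genes were open, against 3, 4 and 8, and with the shorter list 2 PACAP and VIP family and 4 GDNF family genes were.

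Shared regions of the Chrna5, Chrna3 and Chrnb4 locus, 5, were 8 with 100 kb flanks, 2 with the shorter list and 2 above the median height, and 6 to 10 with 1 library left out. For Chrna7 the count of 2 was 1 above the median height and 2 to 6 with a library left out. For Chrnb2 the count of 10 was 6 with 20 kb flanks, 17 with 100 kb and 1 in the gene body. For Adcyap1r1 the count of 11 was 6 in the gene body, 3 with the shorter list and 2 above the median height. For Ret the count of 6 was 9 without replicate 1 and 15 without replicate 2, which adds the weak peaks of the 3′ part.

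Shared footprints of the gene cluster, 6, were 3 with 20 kb flanks and 12 with 100 kb. Those of Chrnb2, 22, were 13 with 20 kb, and those of Adcyap1r1, 10, were 16 with 100 kb. When only footprints that overlap a peak of the same library were kept, the cluster had 5 and Chrnb2 18, and the other loci were unchanged. Counted in 1 library alone, footprints were 19 to 21 for the cluster, 7 to 7 for Chrna7, 43 to 43 for Chrnb2, 23 to 23 for Adcyap1r1 and 25 to 26 for Ret. Pairs of a promoter window and a motif that it held, without the 12-letter consensus, were 7 with 150 bp windows, against 13 with 300 bp. The 12-letter CTCF consensus was added after the sequences were seen. Low heights rest on few steps, 36 at Chrna3, so a peak listed in 1 library only is not shown to be absent from the other. The cause of these changes was not tested beyond what each setting does by construction. No paired analysis was possible because there is 1 group.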

Other observations

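Other motifs searched gave these counts in the 300 bp windows of the receptor genes. In the 7 promoter windows, the helix-loop-helix letters CAGCTG stood in 3 (17.1% of all promoter windows) and the variant CAGATG in 2 (9.48%). The NFY box CCAAT stood in 1 (35.0%) and the EGR consensus GCGNGGGCG in 1 (13.9%). The pattern shorter than the 12-letter CTCF consensus stood in 1 (13.7%), the intronic Adcyap1r1 window, where it overlapped the 12-letter match. None held the NRF1 consensus (10.4% of all promoter windows), the CREB family consensus TGACGTCA (3.59%), the AP-1 consensus TGANTCA (4.01%) or the NFI consensus (0.0233%). None held the GATA factor letters AGATAA (3.36%), the SF-1 consensus CAAGGTCA (0.792%) or the SOX factor letters ACAAAG (10.2%).

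In the 15 distal windows, both the variant CAGATG and the NFY box stood in 5 (24.5% and 31.0% of all distal windows), and the letters CAGCTG in 4 (23.7%). The GC box, the AP-1 consensus and the SOX factor letters stood in 2 each (14.4%, 16.0% and 21.2%). The GATA factor letters stood in 1 (11.6%), and the consensus of the steroidogenic factor SF-1 in 1 (3.50%). None held the EGR consensus (1.15%), the NRF1 consensus (0.603%), the CREB family consensus (0.654%), the RE1 core (0.453%) or the NFI consensus (0.225%). With so few windows these shares are counts only, and the lack of a match says nothing about the factor.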
